A study of Mus musculus with 27 samples.

Results

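Mouse embryonic fibroblasts given imidazole propionate (ImP) at 10 µg/mL for 1 h were compared with the same kind of cells left unstimulated (0 h). Each group held 3 bulk RNA sequencing libraries, taken by their labels, so the comparison uses 6 of the 27 libraries of a series that also covers macrophages and cells labelled aortic endothelial. Another 3 fibroblast libraries, given ImP for 2 h, shared in the estimate of the spread and are set beside the 1 h values. All wells rested overnight before treatment, and the labels give no strain, genotype or embryo age, no vehicle group at 1 or 2 h and no source culture for each library. An effect of ImP and an effect of the added hour in culture therefore cannot be told apart. The p-values describe how these libraries scattered, and that scatter may be technical.

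ImP is made from histidine by gut bacteria and is studied for its links to insulin resistance and atherosclerosis; in mouse liver it is known to act through the kinase p38 gamma and mTORC1. Immediate early genes are the first to be transcribed when a fibroblast meets serum, a growth factor, a cytokine or stress, since they need no new protein. They encode transcription factors of the AP-1, EGR and NR4A families. NF-kB waits in the cytoplasm bound by inhibitors of the IkB family, and its first targets include its own inhibitors, Nfkbia (IkB alpha) and Tnfaip3 (the ubiquitin-editing enzyme A20).

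The 6 libraries held 30.6 to 35.3 M counts, and levels are given in CPM, counts scaled to library size, after TMM scaling. The median marker levels and the summed level of macrophage markers are in CPM without TMM scaling. The fibroblast label held for 7 of 12 markers, which had a median of at least 10 CPM, led by Fn1 (4710 CPM), Col1a1 (2360 CPM) and Vim (1820 CPM). Col3a1 (2.30 CPM) and Thy1 (0.761 CPM) were low, and Fap and Lum had a median of 0 CPM. Of markers of other cell types, 2 of 14 for macrophages, 1 of 14 for endothelium (Flt1, 99.1 CPM), 2 of 8 for smooth muscle and 1 of 8 for epithelium (Krt19, 51.8 CPM) reached 10 CPM.

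Some libraries stood apart before any gene was considered. In 1 h replicates 2 and 3, levels were lower the longer the summed exons: the rank correlation of each gene's deviation from the fibroblast mean with length was -0.37 and -0.43 over 11829 genes, against 0.029 in 1 h replicate 1. In the 0 h libraries it was -0.02, -0.058 and 0.2, and at 2 h it was 0.23, 0.31 and 0.23. These correlations run across genes of 1 library, which are not independent replicates. Over 10 equal bins of genes by length, the median log2 fold change of 1 h minus 0 h ran from 0.11 in the shortest bin (median 1349 bases, 78.6% of genes positive) to -0.09 in the longest (median 12580 bases, 24.1% positive). Removing each library's trend through offsets left medians of 0.03 and -0.0013 in those bins and correlations within 0.031 of 0. Values with the length trend removed are given beside those as counted.

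**Figure D1:**
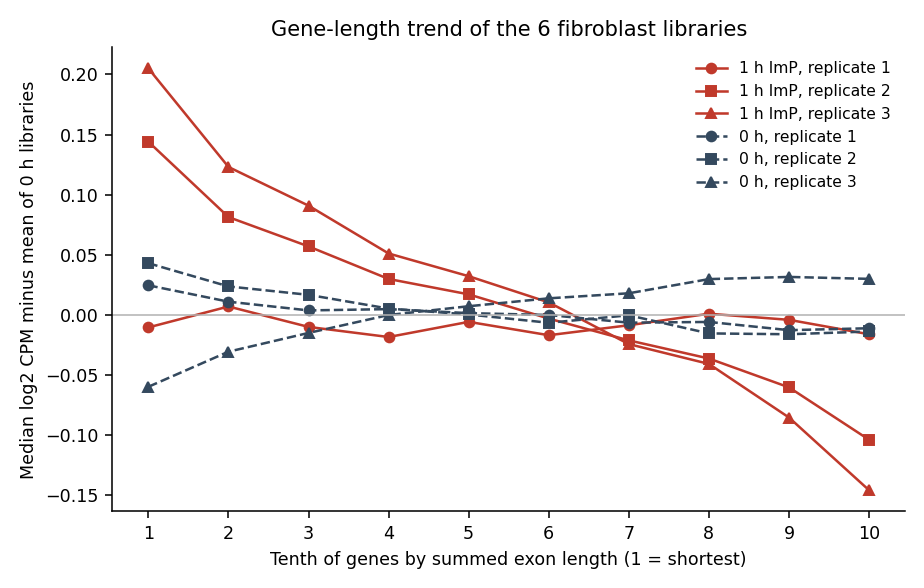
Median log2 CPM minus the mean of the 0 h libraries (y axis) over 10 equal bins of genes by summed exon length (x axis), for the 3 libraries at 1 h (solid) and the 3 at 0 h (dashed). Replicates 2 and 3 at 1 h ran from 0.144 and 0.205 in the shortest bin to -0.104 and -0.146 in the longest, while 1 h replicate 1 stayed between -0.0185 and 0.0069.

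Replicate 1 at 1 h differed from the rest in another way. It lay at 33.3 on the first principal component of the 9 fibroblast libraries (29.6% of the variance), the others between -14.1 and 5.49, and replicates 2 and 3 at 1 h lay at -17.8 and -15.5 on the second (15.1%), the others between -1.53 and 13.4. Values of the 1 h libraries are therefore given one by one.

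Regulatory sequence is shown for the early genes that carry the finding, since NF-kB and AP-1 are the factors named above. The windows are the 250 bases before the transcription start in RefSeq's table (GRCm38.p6), the most upstream start where several were listed. They are written 5′ to 3′ on the gene's strand. For Tnfaip3, Nr4a1, Fosb and Farp2 (window not shown) the start in that table lies inside the gene span given with their values, so the windows overlap that span. Capitals mark matches, on either strand, to the kB consensus or to the AP-1 element TGANTCA. The serum response element core (CArG) and the cyclic AMP response element TGACGTCA were searched too and had no match in these 5 windows.
Nfkbia, chr12:55492648-55492897, minus strand: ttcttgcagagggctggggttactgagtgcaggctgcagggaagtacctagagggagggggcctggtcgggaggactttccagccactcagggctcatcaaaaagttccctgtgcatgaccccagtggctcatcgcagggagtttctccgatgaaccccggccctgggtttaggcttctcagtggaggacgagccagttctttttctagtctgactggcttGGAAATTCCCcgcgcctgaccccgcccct
Tnfaip3, chr10:19015411-19015660, minus strand: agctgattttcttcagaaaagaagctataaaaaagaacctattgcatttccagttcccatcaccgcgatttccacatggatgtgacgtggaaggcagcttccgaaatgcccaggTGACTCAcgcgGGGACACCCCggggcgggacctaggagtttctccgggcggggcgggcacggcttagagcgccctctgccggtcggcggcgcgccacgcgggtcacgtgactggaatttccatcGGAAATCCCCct
Irf1, chr11:53769764-53770013, plus strand: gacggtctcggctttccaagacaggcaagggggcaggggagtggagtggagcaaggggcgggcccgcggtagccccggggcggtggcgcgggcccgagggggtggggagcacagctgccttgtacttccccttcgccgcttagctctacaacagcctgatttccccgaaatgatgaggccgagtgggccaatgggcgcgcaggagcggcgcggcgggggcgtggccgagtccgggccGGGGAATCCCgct
Fosb, chr7:19310046-19310295, minus strand: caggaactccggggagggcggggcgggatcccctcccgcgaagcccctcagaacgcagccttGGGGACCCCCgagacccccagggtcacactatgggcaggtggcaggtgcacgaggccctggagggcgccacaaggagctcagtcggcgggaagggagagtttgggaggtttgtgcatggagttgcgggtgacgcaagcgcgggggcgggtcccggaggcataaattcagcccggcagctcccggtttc
Nr4a1, chr15:101266596-101266845, plus strand: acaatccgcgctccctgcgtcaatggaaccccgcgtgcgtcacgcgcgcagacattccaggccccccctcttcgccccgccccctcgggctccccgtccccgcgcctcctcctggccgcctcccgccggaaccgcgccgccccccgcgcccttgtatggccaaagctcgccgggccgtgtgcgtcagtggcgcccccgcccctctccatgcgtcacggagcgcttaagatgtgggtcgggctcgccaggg
A kB match stood 29 to 20 bases before the start of Nfkbia and 13 to 4 bases before that of Irf1. Tnfaip3 had kB matches at 125 to 116 and 12 to 3 bases before the start and an AP-1 match at 136 to 130, and Fosb had a kB match at 188 to 179. The Nr4a1 window held none, and neither did those of Farp2 and Cd247. Over all 32851 windows in the table, 3.9% held a kB match, 6.75% an AP-1 match, 1.47% a CArG match and 1.55% a TGACGTCA match. A match describes the letters in the window and is not a measured binding site. Egr3 and Phlda1 were not matched in the table.

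After 1 h with ImP a small set of early response and NF-kB feedback genes had higher levels, called by DESeq2 and not by edgeR. Among those with reads in both groups the levels were between 1.27-fold (Phlda1) and 3.69-fold (Fosb) the 0 h level. EdgeR's quasi-likelihood test called 0 of 14066 genes at an adjusted p under 0.05 (0% in each direction). DESeq2 called 9 higher (0.064%) and 1 lower (0.00711%). Those higher were Fosb, Egr3, Nr4a1, Phlda1, Nfkbia, Tnfaip3, Irf1, Cd247 and Gm20390, a predicted gene at 6.00 CPM in 1 h replicate 1 and 0 in the other 5 libraries, and the one lower was Farp2. With the length trend removed DESeq2 called 8 higher (0.0569%) and 1 lower, the same genes except Phlda1 (DESeq2 adjusted p = 0.136), and edgeR again called 0. In simulated data with changes added, DESeq2 made 39 false calls against 13 by edgeR, and 76 against 31 with a length trend left in. At an unadjusted p under 0.05 edgeR had 826 genes (5.87%), 413 higher (2.94%) and 413 lower (2.94%), and 333 (2.37%) and 223 (1.59%) with the length trend removed. Those counts moved with single libraries. The number higher was 198 without 0 h replicate 3, 268 without 1 h replicate 2, 725 without 1 h replicate 1 and 771 without 1 h replicate 3, and the number lower was 257, 271, 643 and 734 in the same order. Of all genes tested, 1.86% were higher and 1.88% lower without 1 h replicate 2. The shares were 5.04% and 4.47% without 1 h replicate 1, and 5.33% and 5.07% without 1 h replicate 3. Leaving out 1 h replicate 1 keeps at 1 h only the libraries with the negative length trend. With the trend removed as well the shares were 3.07% and 1.98%. Counts of list members below are to be read beside these shares. The lists were drawn up with earlier results of these data known, so counts above these shares are description and not separate evidence.

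**Figure D2:**
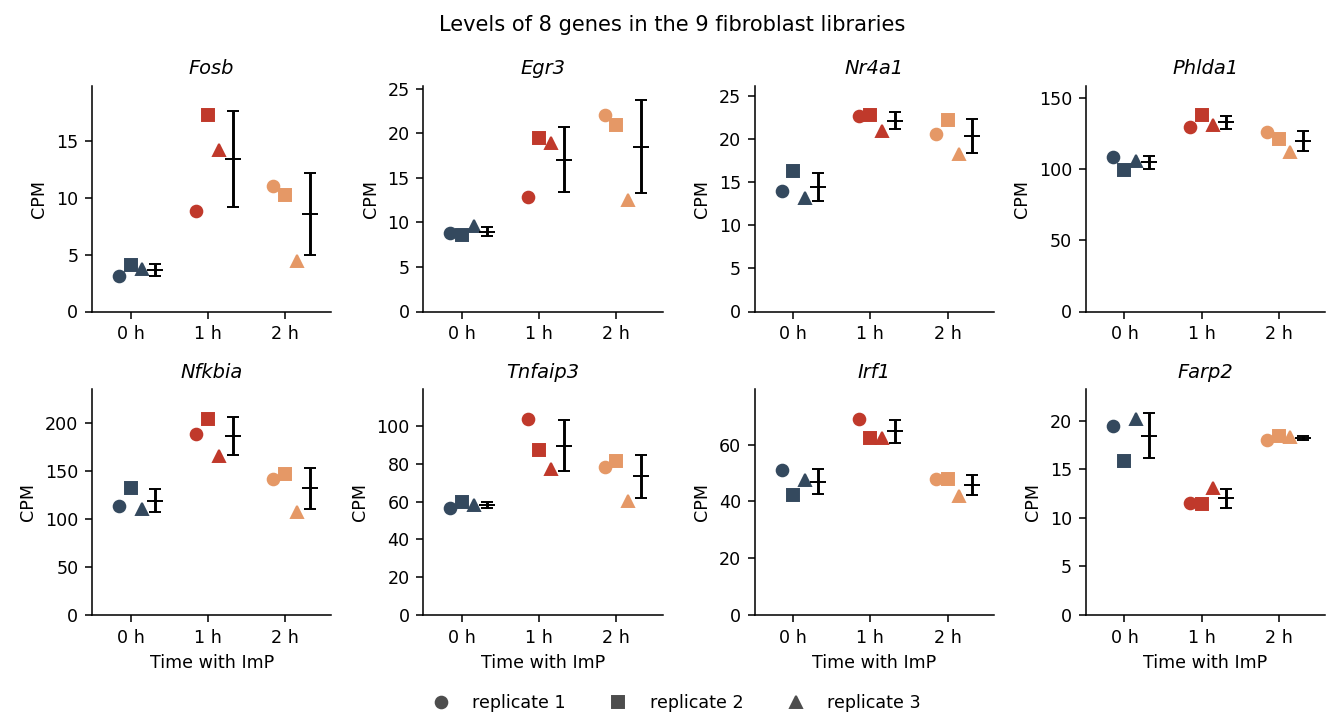
CPM (y axis) of 8 genes called by DESeq2 in each of the 9 fibroblast libraries at 0, 1 and 2 h (x axis), with symbols by replicate and the mean with 1 SD beside them (n = 3). All 1 h libraries lay above all 0 h libraries for 7 genes and below them for Farp2, and Irf1 and Farp2 were back at or near the 0 h levels at 2 h.

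Values of the AP-1 family and ATF3 were positive throughout. AP-1 is a dimer of FOS and JUN proteins that drives stress and growth genes. All 9 members tested had a positive log2 fold change (51.3% of all genes did, and 52% with the length trend removed), with a median of 0.31 against 0.0052 over all genes, and the same median with the length trend removed. In 7 of 9 the 1 h libraries all lay above the 0 h libraries (4.99% of all genes), and 7 had an unadjusted p under 0.05 in edgeR on the higher side (2.94%). With the trend removed these became 6 of 9 (4.4% of all genes) and 5 of 9 (2.37%). By library the list median was 0.28, 0.38 and 0.33 in 1 h replicates 1 to 3, against -0.024, -0.019 and 0.056 in the 0 h libraries.

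Fosb, a FOS family subunit (chr7:19302696-19310051, GRCm38), had 8.88, 17.3 and 14.2 CPM in the 1 h libraries, against 3.10, 4.08 and 3.77 CPM in the 0 h libraries. The groups did not overlap, and 1 h replicate 1 was the lowest of its group. Its log2 fold change was 1.88 (SE 0.351, edgeR adjusted p = 0.594, DESeq2 adjusted p = 5.95e-06), and 1.91 with the length trend removed. Junb, a JUN subunit, had 160, 218 and 199 CPM at 1 h against 126, 137 and 133 CPM at 0 h, with no overlap (0.55, SE 0.136, and 0.49 with the trend removed, edgeR adjusted p = 0.846). Jun had 179, 173 and 157 CPM at 1 h against 143, 126 and 142 CPM at 0 h (0.31, SE 0.0768, and 0.28 with the trend removed). Fosl2, a FOS-related subunit, had 160, 164 and 148 CPM at 1 h against 130, 126 and 142 CPM at 0 h (0.24, SE 0.078, and 0.31 with the trend removed). All 3 sets of libraries lay apart, by little for Fosl2. Of the other members, Atf3, a stress-induced repressor, had 0.66 (SE 0.234, and 0.62 with the trend removed) and was highest in 1 h replicate 1 (61.1, 41.8 and 34.2 CPM at 1 h, against 29.7, 30.6 and 26.2 CPM at 0 h). Fos itself was low, at 4.16, 5.97 and 4.19 CPM at 1 h against 3.92, 2.59 and 3.49 CPM at 0 h (0.52, and 0.46 with the trend removed). Jund, Fosl1 and Maff had 0.28, 0.20 and 0.16, and 0.21, 0.13 and 0.12 with the trend removed. The counting strand is not given in the sources used here, so reads of Junb and Jun cannot be told apart from those of the opposite-strand neighbours Prdx2 (213, 227 and 250 CPM at 1 h, against 214, 202 and 192 CPM at 0 h) and Junos (1.36, 1.63 and 1.59 CPM at 1 h, against 1.64, 1.95 and 1.11 CPM at 0 h).

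**Figure D3:**
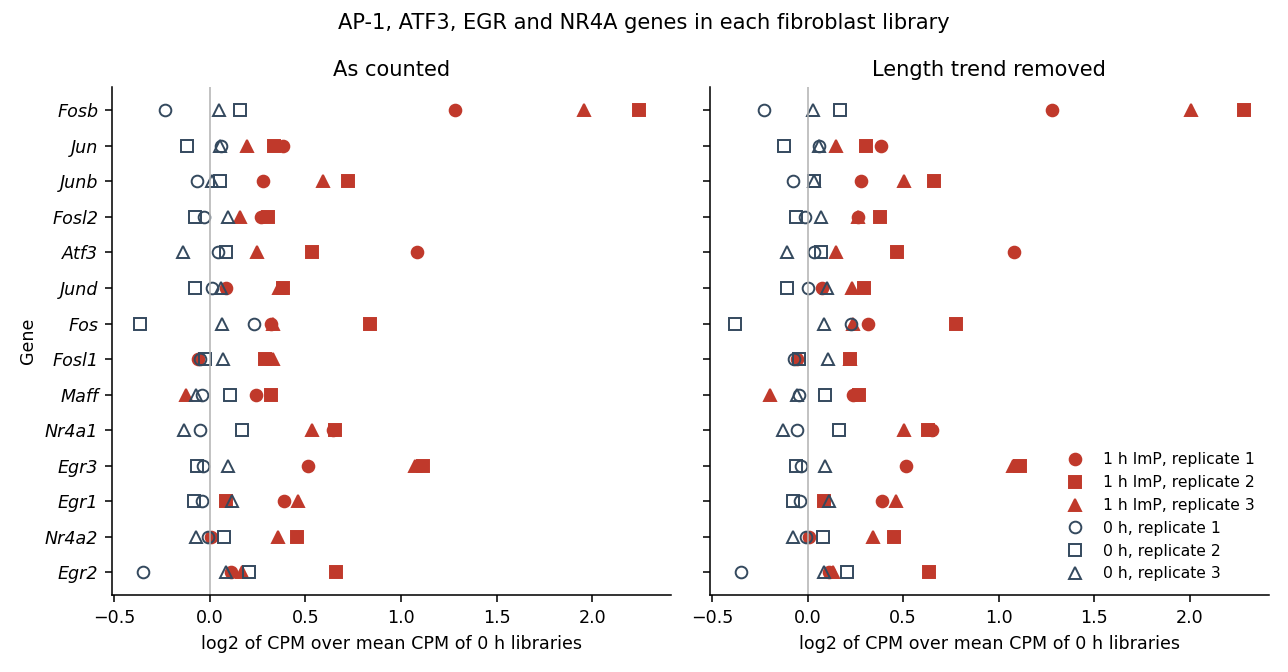
Log2 of each library's CPM over the mean CPM of the 0 h libraries (x axis) for AP-1, ATF3, EGR and NR4A genes averaging 1 CPM or more in the 6 libraries (y axis), as counted (left) and with the length trend removed (right). Filled red symbols are 1 h libraries and open dark symbols 0 h libraries. Fosb, Jun, Junb, Fosl2, Atf3, Fos, Nr4a1 and Egr3 kept the groups apart in both panels.

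Of the EGR zinc finger factors and NR4A orphan nuclear receptors, 5 of 6 tested had a positive value (median 0.33, and 0.32 with the length trend removed). On the higher side 3 of 6 had an unadjusted p under 0.05 in both fits (2.94% of all genes, and 2.37% with the trend removed). Nr4a1 (chr15:101254269-101274795), a receptor induced by calcium and growth signals, had 22.7, 22.8 and 21 CPM in the 1 h libraries, against 14, 16.3 and 13.2 CPM in the 0 h libraries. Here the 1 h libraries stood close together and above every 0 h library. The log2 fold change was 0.61 (SE 0.114, edgeR adjusted p = 0.566, DESeq2 adjusted p = 0.00237) and 0.60 with the trend removed. Egr3 (chr14:70077203-70082614) had 12.8, 19.4 and 18.9 CPM at 1 h against 8.75, 8.57 and 9.58 CPM at 0 h, again without overlap and with 1 h replicate 1 the lowest of its group. Its value was 0.93 in both fits (SE 0.212, edgeR adjusted p = 0.846, DESeq2 adjusted p = 0.0141). Egr1 had 68.4, 55.4 and 72.0 CPM at 1 h against 50.8, 49.4 and 56.7 CPM at 0 h, and the groups overlapped (0.32 in both fits, SE 0.12). Nr4a2 had 0.29 (SE 0.172) and Egr2 0.33 (SE 0.275), and 0.28 and 0.31 with the trend removed. Nr4a3, at 0.0978 to 0.349 CPM at 1 h and 0.317 to 0.583 CPM at 0 h, had a negative value of -0.99 (SE 0.615, and -0.98 with the trend removed), and Egr4 had 0 counts in all 6 libraries.

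Among 32 other immediate early genes 29 had a positive value (median 0.23, and again 0.23 with the length trend removed). On the higher side 12 had an unadjusted p under 0.05 (2.94% of all genes), with 0 on the lower, and 11 lay above the 0 h libraries (4.99%). With the trend removed the higher counts were 11 (2.37% of all genes) and 8 (4.4%). Without 1 h replicate 2 there were 7 of 32 (21.9%) at that p on the higher side, against 1.86% of all genes. Without 1 h replicate 3 there were 17 (53.1%), against 5.33% of all genes. Phlda1 (chr10:111506286-111508645), a pleckstrin-homology protein induced by growth factor signals, had 130, 138 and 131 CPM at 1 h against 109, 99.6 and 106 CPM at 0 h. The 1 h libraries were even and clear of the 0 h libraries, and the value of 0.34 (SE 0.0687, DESeq2 adjusted p = 0.00946) became 0.29 with the trend removed. It overlaps the predicted gene Gm28592 on the opposite strand. Csrnp1, a nuclear protein of the immediate early class, had 30.6, 30.8 and 29.7 CPM at 1 h against 22.7, 24.8 and 23.5 CPM at 0 h (0.36, SE 0.0839, edgeR adjusted p = 0.846, and 0.34 with the trend removed). The growth regulator Myc had 138, 130 and 122 CPM at 1 h against 100, 105 and 111 CPM at 0 h (0.30, SE 0.0869, and 0.27 with the trend removed). These differences were small, and the groups were apart for all 3 genes. Plk2, a polo-like kinase, had 0.29 (SE 0.095) in both fits, with 315, 276 and 247 CPM at 1 h against 212, 248 and 226 CPM at 0 h, a small overlap. Several members were uneven within the 1 h group. Ier3, a survival factor, had 223, 200 and 131 CPM at 1 h against 116, 133 and 123 CPM at 0 h, and Ptgs2, the inducible cyclooxygenase, had 592, 442 and 262 CPM at 1 h against 208, 350 and 236 CPM at 0 h. In both, replicate 1 was the highest and replicate 3 was near the 0 h libraries. Their values were 0.58 and 0.71, and 0.50 and 0.71 with the trend removed. Mcl1 and Trib1 had 0.013 and -0.014, and both changed sign with the trend removed (-0.009 and 0.015).

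Ccn1, a matricellular protein gene driven by YAP and by serum, had 1710, 1550 and 1170 CPM at 1 h against 922, 1100 and 926 CPM at 0 h (0.59, SE 0.17, and 0.54 with the length trend removed). Of 10 YAP and TEAD targets 6 had a positive value (median 0.047), with 2 higher and 1 lower at an unadjusted p under 0.05, against 2 and 0 with the trend removed (median 0.075) and 4 and 0 without 1 h replicate 3. Over all genes 2.94% were higher and 2.94% lower as counted. These shares were 2.37% and 1.59% with the trend removed, and 5.33% and 5.07% without 1 h replicate 3. Of 15 targets of serum response factor and its actin-sensing cofactors 7 had a positive value (median -0.020, and -0.033 with the trend removed). That median was 0.052 without 1 h replicate 1, and -0.006 with the trend removed as well. None was higher at that p and 1 was lower, the long gene Flna (-0.18, SE 0.0726, and -0.11 with the trend removed), which no longer had that p with the trend removed.

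Both NF-kB feedback genes named above were called by DESeq2. Nfkbia (chr12:55489410-55492647) had 189, 205 and 166 CPM in the 1 h libraries, against 114, 133 and 111 CPM in the 0 h libraries. Tnfaip3 (chr10:19000910-19015657) had 104, 87.6 and 77.6 CPM at 1 h against 56.6, 59.9 and 58.0 CPM at 0 h. Every 1 h library lay above every 0 h library for both genes. The log2 fold changes were 0.64 (SE 0.12, edgeR adjusted p = 0.566, DESeq2 adjusted p = 0.000964) for Nfkbia and 0.62 (SE 0.12, edgeR adjusted p = 0.566, DESeq2 adjusted p = 0.00285) for Tnfaip3. With the length trend removed Nfkbia, of 1610 exon bases, had 0.57 and Tnfaip3, of 7226, had 0.66. The rest of the list had smaller values. Of 13 NF-kB inhibitors and feedback regulators 11 had a positive value (median 0.14, and 0.11 with the trend removed). On the higher side 2 passed an unadjusted p of 0.05 (Nfkbia and Tnfaip3, against 2.94% of all genes), and 5 did without 1 h replicate 1 (5.04%). With the trend removed and 1 h replicate 1 left out 2 did (3.07%). By library the list median was -0.017, 0.24 and 0.20 at 1 h. Nfkbiz had 0.34 (SE 0.21) and Nfkbie 0.20 (SE 0.14), while Cyld, a deubiquitinase, and Tnfaip2 had 0.024 and -0.0032. With the trend removed these 4 had 0.35, 0.17, 0.11 and 0.0061. Of 5 NF-kB subunits 4 had a positive value. Relb had 37.5, 36.7 and 33.9 CPM at 1 h against 27.2, 29 and 32.3 CPM at 0 h (0.29, SE 0.105, and 0.28 with the trend removed). Nfkb1 was the negative one at -0.05 (SE 0.0745), and its value was 0.03 with the trend removed.

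Irf1 (chr11:53770014-53778374), a transcription factor downstream of NF-kB and interferon, had 69.2, 62.5 and 62.4 CPM at 1 h against 51.0, 42.4 and 47.5 CPM at 0 h, with no overlap. Its value of 0.46 (SE 0.0914, edgeR adjusted p = 0.566, DESeq2 adjusted p = 0.00859) was 0.45 with the length trend removed. On the opposite strand it overlaps Gm17334, which was not tested. Irf5 had 0.36 (SE 0.149, and 0.33 with the trend removed), and Irf3 and Irf2 had -0.05 and 0.028, against -0.08 and 0.07 with the trend removed. Irf7 and Irf9, which act in the interferon response, were high in 1 h replicate 1. Irf7 had 30.9, 14 and 7.70 CPM at 1 h against 12, 8.83 and 10.2 CPM at 0 h (0.76, SE 0.487). Irf9 had 44, 21.9 and 16.6 CPM at 1 h against 23.1, 20.5 and 20.5 CPM at 0 h (0.37, SE 0.325). Of the 6 factors tested 5 were positive (median 0.36), against 4 and 0.083 without 1 h replicate 1.

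Genes for secreted inflammatory proteins had positive values that were uneven across the 1 h libraries. Of 17 cytokine, growth factor and adhesion genes 14 were positive (median 0.31, and 0.29 with the length trend removed). On the higher side 4 had an unadjusted p under 0.05 (2.94% of all genes), and 6 lay above the 0 h libraries (4.99%). With the trend removed these were again 4 (2.37% of all genes) and 6 (4.4%). The 4 as counted were Csf2, Lif, Il6 and Vcam1. Il6, the gene of interleukin-6, had 4.16, 3.10 and 2.57 CPM at 1 h against 1.38, 2.07 and 1.21 CPM at 0 h (1.07, SE 0.356, edgeR adjusted p = 0.846, and 1.03 with the trend removed). Csf2, the gene of GM-CSF, had 7.90, 7.30 and 5.26 CPM at 1 h against 4.09, 3.79 and 1.84 CPM at 0 h (1.07, SE 0.341, and 0.99 with the trend removed). Lif, a cytokine of the interleukin-6 family, had 81.1, 90.1 and 75.9 CPM at 1 h against 54.6, 56.2 and 60.1 CPM at 0 h (0.53, SE 0.167, in both fits). All 3 kept the groups apart, and Il6 and Csf2 were low, so counting error weighs more in them. Vcam1, an adhesion molecule, had 176, 178 and 172 CPM at 1 h against 142, 163 and 149 CPM at 0 h (0.21, SE 0.0914, and 0.26 with the trend removed). The counts of Il1b and Tnf summed to 8 and 18 over the 1 h libraries, against 2 and 5 over the 0 h libraries, too few to be tested. Of 13 chemokine genes 12 were positive (median 0.27, and 0.21 with the trend removed), and the list median by 1 h library was 0.49, 0.31 and 0.12. On the higher side 2 had an unadjusted p under 0.05 in each fit (2.94% of all genes, and 2.37% with the trend removed). There was 1 without 1 h replicate 1 (5.04% of all genes) or 2 (1.86%). With the trend removed and 1 h replicate 1 left out there were 0 (3.07%). Ccl2, a monocyte attractant, had 68.7, 89.9 and 84.9 CPM at 1 h against 47.9, 60.7 and 40.9 CPM at 0 h (0.70, SE 0.261, and 0.61 with the trend removed). Cxcl1, a neutrophil attractant, had 242, 181 and 127 CPM at 1 h against 105, 142 and 90.8 CPM at 0 h, and there 1 h replicate 3 lay within the range of the 0 h libraries (0.70, SE 0.353, and 0.65 with the trend removed).

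Genes that end such responses were measured as well. Of 12 regulators of mRNA decay 8 were positive (median 0.080, and 0.13 with the length trend removed). At an unadjusted p under 0.05 there were 3 higher and 1 lower (4 and 0 with the trend removed, and 4 and 2 without 1 h replicate 1). With the trend removed and 1 h replicate 1 left out there were 4 and 0 (3.07% and 1.98% of all genes). Over all genes 2.94% were higher and 2.94% lower as counted. These shares were 2.37% and 1.59% with the trend removed, and 5.04% and 4.47% without 1 h replicate 1. Zfp36 (tristetraprolin), which destabilises cytokine mRNAs, had 17.1, 12.6 and 13.4 CPM at 1 h against 9.37, 10.2 and 10.9 CPM at 0 h, without overlap (0.50, SE 0.143, edgeR adjusted p = 0.846, and 0.48 with the trend removed). Its relative Zfp36l1 had 78.7, 71.6 and 74.7 CPM at 1 h against 61.6, 64.7 and 61.9 CPM at 0 h (0.26, SE 0.071, and 0.23 with the trend removed), also apart. Btg1 had 0.19 (SE 0.0669, and 0.21 with the trend removed). The lower one was Cnot1, the scaffold of the deadenylase (-0.19, SE 0.0764, and -0.08 with the trend removed). Of 15 MAP kinase phosphatases and Sprouty-type inhibitors 10 were positive (median 0.0996, and 0.042 with the trend removed), and Dusp5 alone had an unadjusted p under 0.05 (0.19, SE 0.086). With the trend removed Dusp5 had 0.14 and 0 of the 15 had that p. Without replicates 2 and 3 at 1 h, Dusp5 was at -0.012. Dusp1 had 31.8, 22 and 20.4 CPM at 1 h against 21.3, 15.7 and 18.9 CPM at 0 h (0.41, SE 0.195, and 0.39 with the trend removed), and the groups overlapped. Of 8 SOCS genes 5 were positive (median 0.021, and -0.026 without 1 h replicate 2), and Cish had 0.47 (SE 0.182, and 0.50 with the trend removed).

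Interferon-stimulated genes were high in 1 library. Of 18 tested 18 had a positive value (median 0.50, and 0.47 with the length trend removed), and in 1 h replicate 1 all 18 exceeded every 0 h library (30.4% of all genes did). The list median was 1.16, 0.21 and -0.22 in 1 h replicates 1 to 3. Without replicate 1 it was -0.06, with 8 of 18 positive. At an unadjusted p under 0.05 on the higher side there were 4 of 18 (2.94% of all genes). There was 1 without replicate 1 (5.04% of all genes) and 12 without replicate 3 (5.33%). Ifit3, an interferon-induced antiviral protein gene, had 21, 5.22 and 3.21 CPM at 1 h against 2.85, 2.45 and 2.47 CPM at 0 h (1.92, SE 0.691, edgeR adjusted p = 0.846, and 1.89 with the trend removed). Macrophage markers were high in 1 h replicate 1 too: all 14 tested were positive (median 0.36, against 0.058 with 9 of 14 positive without replicate 1). Their summed level was 88.6, 56.3 and 51.8 CPM at 1 h against 45.6, 62.9 and 49.1 CPM at 0 h. None of the 14 was at 0 in any of the 6 libraries, and 5 of 14 had a median under 1 CPM. Elsewhere the macrophage and interferon list medians often parted, with 0.43 against 0.035 in 0 h replicate 2 and 0.61 against -0.14 in 2 h replicate 1. They were closer in 1 h replicate 2 (0.15 against 0.21) and 2 h replicate 3 (-0.45 against -0.42). Lyz2 had 29.5, 17.1 and 14.9 CPM at 1 h against 11.3, 20.5 and 12.5 CPM at 0 h. The part of macrophage markers in the interferon result was not tested. In bulk samples more cells of a type and more RNA per cell cannot be told apart. Irf1, Nfkbia and Tnfaip3 above were higher in all 3 of the 1 h libraries.

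**Figure D4:**
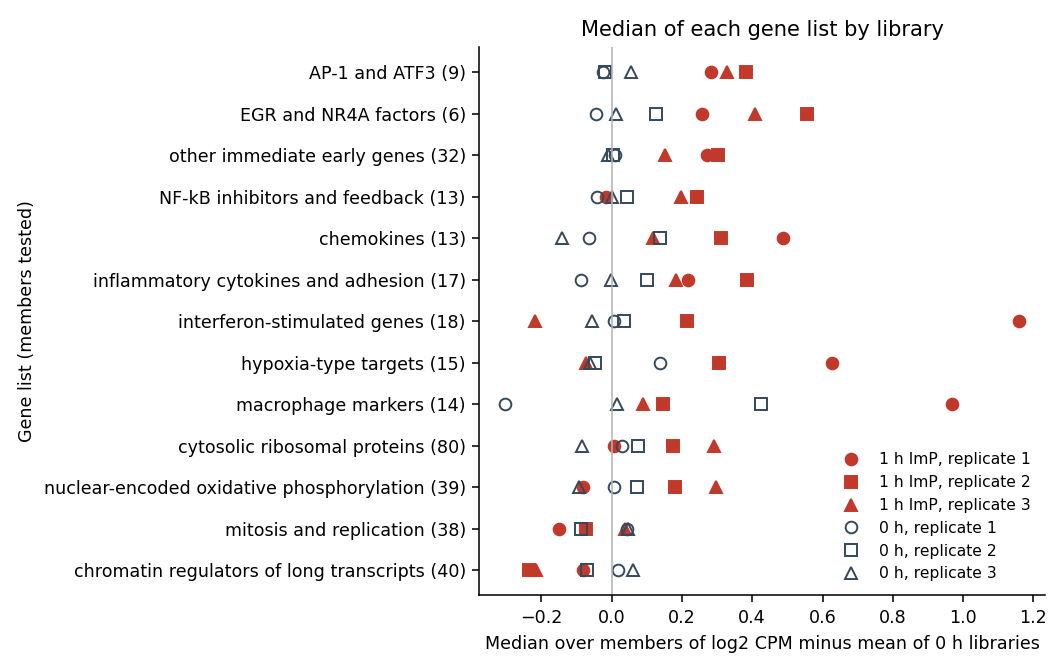
Median over the members of each gene list (y axis, members tested in brackets) of log2 CPM minus the mean of the 0 h libraries (x axis), for the 1 h libraries (filled red) and the 0 h libraries (open dark). The AP-1 list lay at 0.28 to 0.38 in all 3 of the 1 h libraries, interferon-stimulated genes at 1.16 in replicate 1 against 0.214 and -0.218 in replicates 2 and 3, and the chromatin regulators at -0.236 and -0.214 in replicates 2 and 3.

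The lower side of the comparison held many long genes. Of the 369 genes on the lower side at an unadjusted p under 0.05 that averaged 1 CPM or more, 46.1% were in the longest bin and 1.63% in the shortest, with a median of 9413 exon bases against 4521 over all genes of that level. Among the 368 on the higher side 29.9% were in the shortest bin and 1.63% in the longest, with a median of 2593.5 bases. With the length trend removed 39.3% of the lower and 56% of the higher genes still had an unadjusted p under 0.05, and 64% and 83.4% kept at least 66.7% of their log2 fold change.

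Farp2 (chr1:93512079-93621976), a guanine nucleotide exchange factor, was the lower gene called by DESeq2. It had 11.5, 11.4 and 13.1 CPM at 1 h against 19.4, 15.8 and 20.2 CPM at 0 h. The groups did not overlap, with 0 h replicate 2 the nearest to the 1 h libraries. The value was -0.62 (SE 0.118, edgeR adjusted p = 0.566, DESeq2 adjusted p = 0.00442) and -0.60 with the trend removed, at an exon length of 5235 bases. It overlaps Stk25 on the opposite strand, which had 69.0, 67.2 and 67.4 CPM at 1 h against 66.4, 60 and 59.3 CPM at 0 h.

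The next 9 genes on that side shrank with the trend removed. Spen, a transcriptional corepressor of 14089 exon bases, had 84.0, 84.6 and 98 CPM at 1 h against 122, 109 and 134 CPM at 0 h (-0.45, SE 0.105, edgeR adjusted p = 0.846, and -0.35 with the trend removed). Cenpf, a kinetochore protein gene, had 176, 190 and 204 CPM at 1 h against 241, 221 and 254 CPM at 0 h (-0.33, and -0.22 with the trend removed). The groups stayed apart for Spen, Cenpf and Wdfy3 as counted and overlapped with the trend removed. The histone methyltransferase Kmt2d went to -0.23 with the trend removed, against -0.35 as counted. Tenm3, Wdfy3, Mdn1, Ep400, Prrc2c and Birc6 had values between -0.42 (Mdn1) and -0.26 (Ep400), and between -0.29 (Mdn1) and -0.16 (Birc6) with the trend removed. Kmt2d, Ep400, Prrc2c and Birc6 kept less than 66.7% of their size.

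Of 40 chromatin regulators with long transcripts (median 14026 exon bases) 3 had a positive value (median -0.20), 17 had an unadjusted p under 0.05 on the lower side (2.94% of all genes) and 15 lay below the 0 h libraries (5.02%). With the trend removed the median was -0.10, with 7 positive, 10 lower at that p (1.59% of all genes) and 8 below (3.59%). The list median by 1 h library was -0.081, -0.236 and -0.214 as counted. It was -0.089, -0.147 and -0.057 with the trend removed. Without 1 h replicate 1 the count on the lower side was 25 (4.47% of all genes), and without 1 h replicate 2 it was 11 (1.88%). With the trend removed and 1 h replicate 1 left out it was 7 (1.98%). This list was drawn up for long transcripts, the property that carries the trend, so its values as counted are not separate evidence and all genes are not a like comparison. The longest bin, of 1183 genes, held 170 of the 369 lower genes, with a median of -0.09 as counted and -0.0013 with the trend removed. Of 38 mitosis and replication genes 5 were lower at an unadjusted p under 0.05 (Cenpf, Cenpe, Aspm, Top2a and Bub1b, against 2.94% of all genes). With the trend removed 4 of these and Nusap1 were (1.59% of all genes). The count was 12 without 1 h replicate 3 (5.07% of all genes) and 3 without 1 h replicate 2 (1.88%). The list median was -0.039, and 0.011 without 1 h replicate 1. With the trend removed and 1 h replicate 1 left out it was -0.0083.

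Short genes of 2 large families lay on the other side. Of 80 cytosolic ribosomal protein genes 80 had a positive value (median 0.16), 33 had an unadjusted p under 0.05 (2.94% of all genes, higher) and 17 lay above the 0 h libraries (4.99%). With the length trend removed these were 76, 0.11, 12 (2.37% of all genes) and 20 (4.4%). The list median was 0.0059, 0.18 and 0.29 in 1 h replicates 1 to 3. Without replicate 1 there were 77 of 80 at an unadjusted p under 0.05 (5.04% of all genes, higher). With the trend removed and replicate 1 left out there were 38 (3.07%). As counted there were 14 without replicate 2 (1.86%) and 5 without replicate 3 (5.33%). Rps15 had 601, 679 and 725 CPM at 1 h against 583, 594 and 539 CPM at 0 h (0.22, SE 0.0732, and 0.11 with the trend removed). Of 39 nuclear-encoded oxidative phosphorylation genes 39 were positive (median 0.13), with 5 at an unadjusted p under 0.05 (2.94% of all genes, higher). These were 31, 0.037 and 1 (2.37% of all genes) with the trend removed. Without 1 h replicate 1 there were 27 of 39 at that p (5.04% of all genes), and without replicate 3 there were 0 (5.33%). With the trend removed and 1 h replicate 1 left out there were 7 (3.07%). Of the 13 mitochondrially encoded genes, which are short and not spliced, 3 were positive (median -0.13), and 0 were with the trend removed (median -0.22). By 1 h library the mitochondrially encoded median was -0.25, 0.10 and -0.17, against -0.082, 0.18 and 0.30 for the nuclear-encoded genes, so the signs differed in replicate 3 and not in replicates 1 and 2. The mitochondrially encoded median was -0.02 without 1 h replicate 1, and -0.16 with the trend removed as well.

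**Figure D5:**
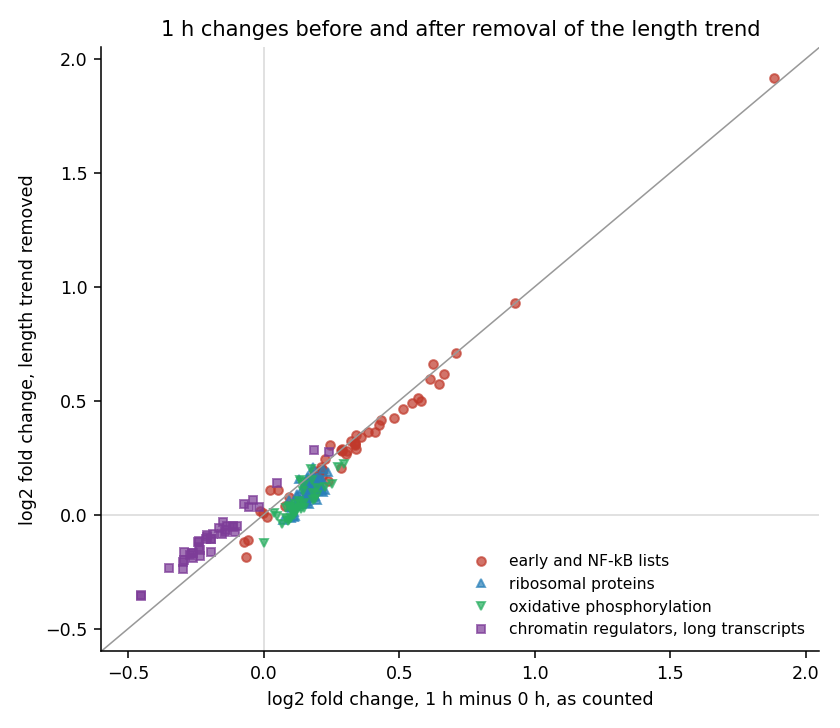
Log2 fold change of 1 h minus 0 h with the length trend removed (y axis) against the value as counted (x axis), for members averaging 1 CPM or more of the early and NF-kB lists, ribosomal protein genes, oxidative phosphorylation genes and chromatin regulators with long transcripts. The line marks equal values; Fosb (1.88 and 1.91) and Egr3 (0.93 in both fits) lay on it, while ribosomal protein genes and chromatin regulators moved toward 0, their medians going to 0.11 and -0.10.

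Components of the pathway through which ImP is known to act in liver had small values. Of 24 mTOR pathway genes 9 were positive (median -0.039), with 2 higher and 3 lower at an unadjusted p under 0.05. After removal of the length trend 11 were positive (median -0.015), with 1 higher and 2 lower. Without 1 h replicate 1 there were 1 higher and 5 lower as counted. With the trend removed as well there were 0 higher (3.07% of all genes) and 1 lower (1.98%). Over all genes 2.94% were higher and 2.94% lower as counted. These shares were 2.37% and 1.59% with the trend removed, and 5.04% and 4.47% without 1 h replicate 1. Rps6kb1, the S6 kinase, had 82.4, 87.5 and 81.8 CPM at 1 h against 97.6, 96.8 and 96.5 CPM at 0 h (-0.21, SE 0.0658, edgeR adjusted p = 0.846, and -0.16 with the length trend removed), and Eif4ebp1, the translation repressor that mTORC1 inactivates, had 184, 176 and 159 CPM at 1 h against 152, 150 and 147 CPM at 0 h (0.21, SE 0.0769, and 0.15 with the trend removed). The libraries did not overlap for Rps6kb1 in either fit. For Eif4ebp1 they did not overlap as counted and overlapped with the trend removed. Of 10 genes for imidazoline binding sites and p38 kinases 5 were positive (median -0.0061, and 0.017 without 1 h replicate 1). In either fit 0 had an unadjusted p under 0.05, against 2 higher without 1 h replicate 3 (5.33% of all genes). Mapk12 (p38 gamma) had 15.1, 17.2 and 14 CPM at 1 h against 12.8, 18.8 and 14.4 CPM at 0 h (0.0056, SE 0.147, and -0.0065 with the trend removed), and Nisch, the imidazoline receptor candidate, had 317, 279 and 276 CPM at 1 h against 316, 291 and 314 CPM at 0 h (-0.08, SE 0.0723, and 0.0065 with the trend removed). Transcript levels do not measure kinase activity.

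The remaining genes of the naming rule were low or multicopy. Cd247, the T cell receptor zeta chain gene, had 27, 17 and 16 counts in the 1 h libraries and 0 in each 0 h library, at least 6.6-fold higher against a floor of 3 counts per library, which covers counting error only. It had 16, 30 and 2 counts at 2 h, and its long locus overlaps Pou2f1 on the opposite strand (47.3, 43.1 and 39.5 CPM at 1 h, against 45.9, 48.5 and 52.3 CPM at 0 h). Samt1c, on the X chromosome, had 6.66, 6.55 and 3.85 CPM at 1 h against 1.72, 2.56 and 2.89 CPM at 0 h (1.25, edgeR adjusted p = 0.846, and 1.16 with the trend removed) and belongs to a family of near-identical copies whose reads may be split.

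At 2 h Egr3, Nr4a1, Fosb, Tnfaip3, Phlda1 and Cd247 were still above all the 0 h libraries. In 2 h replicate 3 this was by little for Fosb (4.44 against at most 4.08 CPM) and Tnfaip3 (60.6 against 59.9 CPM). The same held there for Phlda1 (112 against 109 CPM) and Cd247 (2 counts against 0). Nfkbia, Irf1 and Farp2 were not apart from the 0 h libraries. The 2 h comparison uses the same 0 h libraries, so its values are only set side by side; edgeR called 0 genes in it, with 188 higher (1.34%) at an unadjusted p under 0.05. Log2 fold changes of 1 h and 2 h against 0 h were 1.88 and 1.24 for Fosb, 0.61 and 0.49 for Nr4a1, 0.93 and 1.04 for Egr3, 0.64 and 0.15 for Nfkbia, 0.62 and 0.34 for Tnfaip3, 0.46 and -0.03 for Irf1, and -0.62 and -0.02 for Farp2. At 2 h Irf1 had 47.8, 47.9 and 41.9 CPM and Farp2 18, 18.4 and 18.3 CPM, all apart from the 1 h libraries and at or near the 0 h levels. Replicate 3 at 2 h was the lowest for Fosb (11.1, 10.3 and 4.44 CPM) and Egr3 (22, 20.9 and 12.5 CPM). Tested directly, 2 h against 1 h was -0.50 (SE 0.0913) for Irf1 and 0.60 (SE 0.118) for Farp2, both at an edgeR adjusted p of 0.142, and -0.49 (SE 0.12, edgeR adjusted p = 0.176) for Nfkbia. EdgeR called 0 of 14066 genes in that comparison, with 880 higher (6.26%) and 829 lower (5.89%) at an unadjusted p under 0.05, and DESeq2 called 242 higher and 66 lower. Without 1 h replicate 1 edgeR called 222 higher and 143 lower there. All 2 h values and counts here are as counted. The rank correlation with length was -0.37 and -0.43 in 1 h replicates 2 and 3, and 0.23, 0.31 and 0.23 in the 2 h libraries. In the longest bin the 2 h medians over the 0 h mean were 0.034, 0.059 and 0.061. The part of the length trend in the 2 h differences was not tested.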

How the data were processed

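Bulk RNA from 3 unstimulated fibroblast libraries, 3 given ImP for 1 h and 3 given it for 2 h was analysed from 1 gene-level table. Its values are expected counts, whole in every cell as deposited. The submitters' processing notes name, without roles, STAR and RSEM, cutadapt and FastQC, DESeq2 in R 4.3.2, and the builds mm10 and GRCm38.p6. The labels' protocols give a directional kit, and how strand was used in counting is not given in the sources used here.

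The deposited estimated counts of the 9 fibroblast libraries entered edgeR 4.0.16 (R 4.3.3) with filterByExpr (minimum count 10), TMM, a robust quasi-likelihood fit and Benjamini-Hochberg adjustment over 14066 genes of 25192 (threshold 0.05). Totals of 30.6 to 36.5 M counts put the limit of 3 counts under 0.1 CPM, for counting error only. Log2 CPM used a prior count of 2. For the length trend, each library's log2 CPM deviation was smoothed on log2 summed exon length (GENCODE M21 models, spline of 5 degrees of freedom, genes averaging 1 CPM or more) and entered as offsets; 99.3% of tested genes had a length. Alternatives were DESeq2 1.42.0, limma-voom (limma 3.58.1), other scalings, filters and covariates, and leaving out each library. The steps were tested on simulated data, where DESeq2 made more false calls than edgeR, and both made more with a length trend left in.

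Named genes are the 10 of each direction with the smallest p among genes averaging 1 CPM or more whose groups did not overlap, every gene called by edgeR or DESeq2, and up to 4 members with the smallest p from early and inflammatory lists and up to 2 from others. Other named genes were picked after their values were seen. The members and lists were chosen with earlier results of these data known.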

Additional observations from a re-analysis of the deposited data

Results flagged for a closer look

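For 3 named genes every 1 h library lay on one side of the 0 h libraries and every 2 h library on the other, so the 2 h minus 1 h difference is given. None of them passed edgeR's test after Benjamini-Hochberg adjustment. Tead1, a DNA-binding partner of YAP, had 277, 264 and 234 CPM at 1 h, then 327, 324 and 325 CPM at 2 h, against 280, 304 and 313 CPM at 0 h, a 2 h minus 1 h log2 difference of 0.33 (SE 0.0724, edgeR adjusted p = 0.142). Fbn1, the gene of the matrix protein fibrillin-1, had 96.3, 93.7 and 101 CPM at 1 h, then 123, 127 and 130 CPM at 2 h, against 109, 108 and 121 CPM at 0 h (0.38, SE 0.0693, edgeR adjusted p = 0.142). Both are long genes; the length trends of 1 h replicates 2 and 3 were negative and those of the 2 h libraries positive, while 1 h replicate 1 had almost none. Hspb1, a small heat shock protein gene, had 14.1, 12.4 and 9.88 CPM at 1 h, then 9.25, 7.99 and 7.33 CPM at 2 h, against 9.42, 9.41 and 9.64 CPM at 0 h (-0.56, SE 0.148, edgeR adjusted p = 0.189). With the length trend removed, the 1 h and 0 h libraries overlapped for all 3 genes. The part of the length trend in these differences was not tested.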

How the results depend on the processing

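Against 0 genes called by edgeR at 1 h, DESeq2 called 9 higher and 1 lower, DESeq2 with the length trend removed 8 higher and 1 lower, and edgeR without a filter on low counts 1 higher (Cd247, adjusted p = 0.0373). Leaving out 1 library at a time gave 0 to 1 higher at 1 h, the 1 being Fosb without 2 h replicate 3 (edgeR adjusted p = 0.0262), and without 1 h replicates 2 and 3 the lone library, assumed to vary like the rest, gave 110 higher and 166 lower. The columns carry no replicate numbers; a replicate block by runs of library codes gave 1 higher (Nfkbia, edgeR adjusted p = 0.013), and with the length trend removed as well 2 (Nfkbia and Tnfaip3, both at 0.0407), but deviations in a run correlated at -0.049, 0.09 and 0.21, so the runs were not taken as pairs. With the length trend left in, DESeq2 called 5 higher at 2 h against 0 h, and 242 higher and 66 lower at 2 h against 1 h. In the latter comparison leaving out 1 library gave edgeR 0 to 222 higher and 0 to 143 lower, the highest without 1 h replicate 1. At an unadjusted p under 0.05 other settings than those named beside the results gave 810 higher and 876 lower (voom quality weights), 328 and 524 (library totals), and 304 and 183 (longest transcript as length), against 413 and 413. Of 2517 values of 101 named genes under alternatives, 2467 kept direction and call, 35 newly passed and 15 changed sign. Without 1 h replicates 2 and 3, Nfkbie was at -0.0247, Nfkb2 at -0.0316, Dusp5 at -0.0121 and S100a4 at -0.06265. Nfkb1 was at 0.0309 with the length trend removed (edgeR and DESeq2), 0.0266 with the block too and 0.127 without 1 h replicate 1 too, and ranged from -0.118 to 0.004519 over single libraries left out. Cd68 (-0.182) and Smtn (-0.0434) turned with the trend removed and 1 h replicate 1 left out, and over single libraries ranged from -0.04918 to 0.489 and from -0.0422 to 0.153. Krt14 was at -0.0561 with voom quality weights and ranged from -0.02996 to 0.653. The cause of these changes was not tested. With 3 libraries a group and no vehicle at 1 h, small differences are not resolved, and genes under 1 CPM rest on few counts.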

Other observations

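Hypoxia-type targets were uneven across the 1 h libraries. Of 15 tested 14 had a positive log2 fold change at 1 h against 0 h (median 0.36, and 0.34 with the length trend removed), and 4 had an unadjusted p under 0.05 in edgeR against 1 with the trend removed. The list median was 0.63, 0.31 and -0.072 in 1 h replicates 1 to 3, and 0.12 over the list without replicate 1. The count at that p was 11 of 15 without replicate 3, with a median of 0.52, and 1 of 15 without replicate 1. Over all genes 2.94% were higher at that p, and 2.37% with the trend removed. That share was 5.33% without 1 h replicate 3 and 5.04% without 1 h replicate 1. Vegfa, the vascular growth factor, had 157, 187 and 124 CPM at 1 h against 115, 121 and 120 CPM at 0 h (0.39, SE 0.173), so replicate 3 stood close to the 0 h libraries. Of 17 circadian clock genes 12 were positive (median 0.10, and 0.094 with the trend removed) with 2 at that p, or 4 without 1 h replicate 3, led by Nr1d1 (REV-ERB alpha) with 50.6, 40.4 and 32.4 CPM at 1 h against 22.1, 30.7 and 30.9 CPM at 0 h, and Bhlhe40, a repressor of the clock, with 232, 231 and 178 CPM at 1 h against 151, 170 and 168 CPM at 0 h. Both kept the groups apart. Their values were 0.56 and 0.39, and 0.53 and 0.39 with the trend removed.

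Other response lists gave few members at an unadjusted p under 0.05 on the higher side, and the counts moved with single libraries. The share of all genes moved too. It was 2.94%, 2.37% with the length trend removed, and 5.04%, 1.86% and 5.33% without 1 h replicates 1, 2 and 3. Of 11 glucocorticoid targets 10 were positive (median 0.22, and 0.20 with the length trend removed) with 3 at that p, 1 of them Nfkbia, and 5 without 1 h replicate 3. Of 17 p53 targets 12 were positive (median 0.12, and 0.066 with the trend removed) with 2, and 4 without 1 h replicate 3. Of 13 heat shock genes 11 were positive (median 0.068, and 0.067 with the trend removed) with 2, and 1 with the trend removed or without 1 h replicate 1 or 2. Of 17 genes of the integrated stress and unfolded protein responses 16 were positive (median 0.16, and 0.099 with the trend removed) with 0. That list had 5 and a median of 0.23 without 1 h replicate 3, and without replicate 1 it had 2 and a median of 0.083. With the trend removed and replicate 1 left out it had 0 (3.07% of all genes) and a median of 0.0094.

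The direction of 18 TGF-beta and BMP targets rested on single libraries. Of these 10 were positive (median 0.086, and 0.063 with the length trend removed), against 8 and a median of -0.03 without 1 h replicate 3, and 14 and a median of 0.14 without 1 h replicate 1. The feedback inhibitor Smad7 was the member at an unadjusted p under 0.05, with 44, 41.5 and 35.8 CPM at 1 h against 33.7, 32.2 and 33.7 CPM at 0 h (0.28 in both fits). Of 22 cholesterol synthesis genes 15 were positive (median 0.047, and 0.056 with the trend removed) with 0, and 2 without 1 h replicate 3. Extracellular matrix genes leaned the other way, with 8 of 29 positive, a median of -0.046 and 2 lower at that p, or 5 without 1 h replicate 1. In the fit with the length trend removed 15 of 29 were positive. With 1 h replicate 1 left out of that fit 1 was lower at that p (1.98% of all genes). Of 20 matrix proteases and inhibitors 14 were positive (median 0.0997, and 0.082 with the trend removed), with Adamts1 higher and Mmp3 lower at that p in both fits. There were 6 higher without 1 h replicate 3. Over all genes 2.94% were higher and 2.94% lower at that p. The share higher was 5.33% without 1 h replicate 3, and the share lower 4.47% without 1 h replicate 1.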
